A study of Mus musculus with 28 samples.

Results

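Mouse embryonic fibroblasts (MEFs) carrying retroviral Oct4, Klf4 and Sox2 (OKS) were sampled during reprogramming to induced pluripotent stem cells, and the comparison described here set cells kept in the p38 inhibitor for 7 days against control cells at day 5. Control day 5 was chosen from measured values: among the control groups it was the nearest in overall expression to p38i day 7, so that a culture that had only been slowed would be compared with the stage it had reached. The comparison used 4 of the 28 libraries of the series, p38i day 7 replicates 1 and 2 and control day 5 replicates 1 and 2. All 14 groups of the series held 2 libraries each, made from total RNA of wild-type cells, and they were untreated and p38i-treated MEFs without induction, and control, p38i and p38i-pretreated (pre_p38i) cells at days 1, 3, 5 and 7. The MEFs were OG2 cells, which carry an Oct4-GFP reporter, from embryos of OG2 and 129 parents, and the factors were delivered by pMXs retroviruses in iCD1 medium, so the values of Pou5f1, Sox2 and Klf4 include the transgenes. The p38i groups received SB203580, a small molecule that binds the ATP pocket of p38α and p38β, during induction, and the control groups received its solvent DMSO. Every culture is a mixture of cells at different stages, so in these bulk samples fewer cells of a type and less RNA per cell cannot be told apart. The labels do not say whether replicates were separate cultures, so each error and p-value measures the spread between these libraries, which may be technical.

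The deposited values are whole numbers that sum to between 991287 and 992537 in each library, as TPM values (transcript abundances scaled to one fixed total per library) that were rounded down would. They are called TPM below on that ground. The number of reads behind them is unknown. A difference is always p38i day 7 minus control day 5 on the log2(TPM + 1) scale, with its standard error (SE), and it understates the change of genes with low values. A gene was called when its Benjamini-Hochberg adjusted p in limma was under 0.05 over the 13230 genes whose mean reached 1 TPM. Because this contrast chose the control day, its calls are given as a description and without p-values, and so are those of every contrast that contains it. A second pair, p38i day 5 against control day 3, has the same offset of 2 days and shares no library with the first. Adjusted p-values are given for this earlier pair alone. Control day 3 was also the control group nearest to p38i day 5, and it was one of the days compared when control day 5 was chosen. The difference between the pairs contains the later contrast, so it is given as a value and a call.

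Reprogramming of fibroblasts proceeds through loss of mesenchymal genes, gain of epithelial genes, and late activation of the endogenous pluripotency network. p38 is a stress-activated MAP kinase that acts on transcription factors and on kinases such as MK2, which stabilizes the mRNA of inflammatory genes. Interferon response genes carry binding sites of 2 kinds: the gamma-activated site (GAS) is bound after interferon gamma, and the interferon-stimulated response element (ISRE) is bound after type I interferon by a complex that holds STAT2 and IRF9. The immunity-related GTPases (IRGs) and guanylate-binding proteins (GBPs) are classical interferon gamma targets that attack the vacuoles of intracellular parasites, whereas the Ifit and Oas families are antiviral effectors of type I interferon.

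Tgtp2 and Iigp1, the genes named here with the most negative differences, are IRGs, and other interferon response genes were also lower in p38i day 7, so the sequences just before their starts are shown first. Each is the 120 bases upstream of the RefSeq start in GRCm38.p6, 5′ to 3′ on the gene's strand, with matches to the ISRE letters, GAAA and GAAA separated by any 2 bases, and the GAS letters TTCNNNGAA in capitals, on either strand. The windows are chr11:49064213-49064332 (minus strand) for Tgtp2, chr11:58199436-58199555 (plus) for Igtp, chr11:58214857-58214976 (plus) for Irgm2, chr3:142530216-142530335 (plus) for Gbp7, chr19:34640769-34640888 (plus) for Ifit1 and chr4:156200819-156200938 (minus) for Isg15. The first 4 belong to IRG and GBP genes and the last 2 to antiviral effector genes with smaller differences.
Tgtp2: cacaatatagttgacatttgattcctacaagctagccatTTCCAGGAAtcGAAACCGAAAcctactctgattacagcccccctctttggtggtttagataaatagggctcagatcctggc
Igtp: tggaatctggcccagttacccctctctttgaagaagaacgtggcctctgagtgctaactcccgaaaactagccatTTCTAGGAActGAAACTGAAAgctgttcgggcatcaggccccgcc
Irgm2: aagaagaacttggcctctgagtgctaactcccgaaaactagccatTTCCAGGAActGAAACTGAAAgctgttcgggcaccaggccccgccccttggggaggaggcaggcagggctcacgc
Gbp7: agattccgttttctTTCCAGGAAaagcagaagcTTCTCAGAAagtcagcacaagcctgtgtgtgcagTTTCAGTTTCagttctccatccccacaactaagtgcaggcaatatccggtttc
Ifit1: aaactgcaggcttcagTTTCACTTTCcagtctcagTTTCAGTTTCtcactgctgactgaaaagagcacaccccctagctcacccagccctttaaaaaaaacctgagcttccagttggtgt
Isg15: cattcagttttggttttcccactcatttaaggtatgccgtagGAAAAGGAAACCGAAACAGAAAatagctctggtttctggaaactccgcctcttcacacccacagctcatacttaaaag
Tgtp2, Igtp and Irgm2 held a GAS match followed after 2 bases by an ISRE match. This arrangement was found in the 250 bases before the start of 4 of the 10004 tested genes with a promoter in the RefSeq table, namely these 3 and Tgtp1. From 20 bases before the GAS to the end of the ISRE, Igtp and Irgm2 were identical at 40 of 41 bases and Tgtp2 and Irgm2 at 32 of 41, so the 3 are not independent examples. Gbp7 held both motifs apart from each other, Ifit1 held 2 ISRE matches and no GAS, and the 3 ISRE matches of Isg15 overlapped.

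p38i day 7 lay closest to control day 5, by the measure that chose this day, and remained at a distance from every control group. The root mean square (RMS) log2 difference between the p38i day 7 mean and the control means was 1.44 for MEF, 0.933 for day 1, 0.558 for day 3, 0.499 for day 5 and 0.530 for day 7. The distance to day 5 was thus only a little below those to its neighbours, and with the 500 most variable genes day 7 was the nearest control instead. Each p38i day 7 library alone was also nearest to day 5, at 0.525 and 0.539, and 2 replicates of one group were 0.321 to 0.399 apart. Day 5 stayed nearest after leaving out each gene list in turn, and after leaving out the genes of all lists, which was tried only once the data were known. For p38i day 5 the nearest control day was also 2 days earlier, with distances of 0.465 from control day 3 and 0.532 from control day 5.

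**Figure D1:**
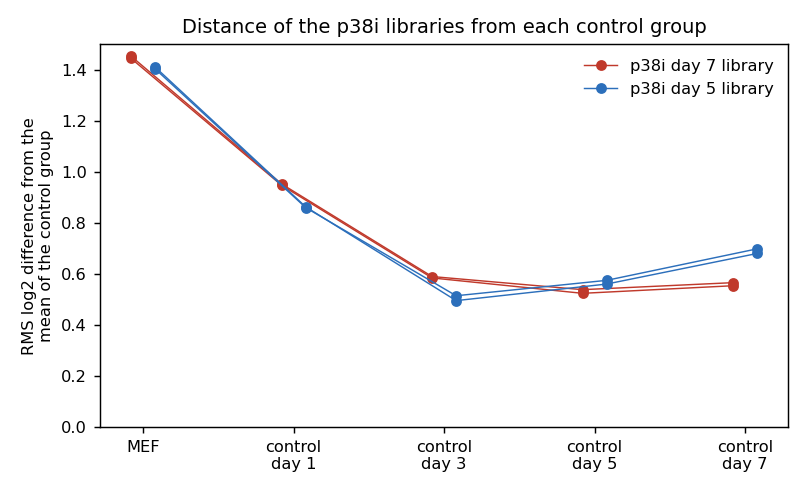
Root mean square log2 difference (vertical axis) of each p38i day 7 (red) and p38i day 5 (blue) library from the mean of each control group (horizontal axis), one point per library over 13230 genes. The red points are lowest at control day 5, at 0.525 and 0.539, and the blue points at control day 3.

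A position along the control course was read by projecting each library on the line from control day 3, set at 0, to control day 7, set at 100. The p38i day 7 libraries fell at 53.8 and 53 and the control day 5 libraries at 50.9 and 50.6. The difference between the 2 groups along this line made up 0.169% of their squared difference, a share that choosing the nearest day keeps low. With the replicate noise removed, the 2 groups remained 0.427 apart in RMS log2 difference. For the earlier pair, on the line from control day 1 to day 5, p38i day 5 fell at 72.8 and 71.7 and control day 3 at 68.9 and 69.7, with 0.558% of the squared difference along the line and 0.376 left after noise removal. Control day 3 was the nearest day to p38i day 5 as well, so this share is low for the same reason.

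Of the 13230 genes tested, 3117 (23.6%) were called between p38i day 7 and control day 5, of which 1111 (8.40%) were higher and 2006 (15.2%) lower in p38i day 7. After quantile normalization the split was 1731 higher and 1703 lower, so the excess of lower calls depended on the scaling. The median difference of all genes was −0.04 as reported and 0.03 after quantile normalization. Fewer genes differed by at least 1 on the log2 scale: 135 (1.02%) were higher and 485 (3.67%) lower. The number called was 1999 without control day 5 replicate 2 and 877 when only these 4 libraries were fitted. p38i day 7 differed from control day 3 at 3969 genes (30.0%) and from control day 7 at 4509 genes (34.1%), so the count was lowest for the day that had been chosen as nearest. The shares of 8.40% higher and 15.2% lower are the background of each list count below.

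The place of the called genes on the control course was mixed. Among the 1111 higher genes, the p38i day 7 mean lay between the control day 3 and day 5 means for 75 (6.75%), between the day 5 and day 7 means for 180 (16.2%), elsewhere inside the range of the 5 control means for 273 (24.6%), and outside this range for 579 (52.1%). Among the 2006 lower genes the same places held 273 (13.6%), 307 (15.3%), 791 (39.4%) and 615 (30.7%). The other 4 higher and 20 lower genes lay between day 5 and both of its neighbours. These places come from the contrast that chose the control day and are a description.

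Genes that the controls themselves moved between days 3 and 7 were set against the chosen day, which keeps their differences small as a whole. Of 13230 genes, 745 (5.63%) rose at least 2-fold on the log2(TPM + 1) scale and 434 (3.28%) fell at least that much from control day 3 to day 7 with a call. The rising genes had a median difference of −0.03 between p38i day 7 and control day 5, with 96 (12.9%) called higher and 137 (18.4%) called lower, against 8.40% and 15.2% of all genes. The falling genes had a median difference of −0.26, with 35 (8.06%) called higher and 130 (30.0%) called lower. The last 2 counts were 16 higher without p38i day 7 replicate 2, 23 higher without p38i day 7 replicate 1, and 78 lower without control day 5 replicate 2. The earlier pair had 174 rising genes called higher and 45 lower, with a median of 0.29, and 8 falling genes were called higher and 208 lower, with a median of −0.58. The course genes were chosen with the control day 3 libraries that this pair also uses.

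The 4 steepest rising and 4 steepest falling course genes of the controls showed how uneven this was. Gpx2, a glutathione peroxidase of epithelia, was listed at 2 and 3 TPM at control day 3, 20 and 22 at day 5, 100 and 91 at day 7, and 38 and 33 in p38i day 7. Spint1, an inhibitor of epithelial serine proteases, had 8 and 9 TPM at control day 5 and 15 and 14 in p38i day 7, which was not a called difference. Cd74, the invariant chain of MHC class II, went the other way, with 10 and 9 TPM against 4 and 3. Cd2, a lymphocyte adhesion receptor, had 7 and 4 TPM against 5 and 6 and was not called. Among the falling genes, Igfbp7, a secreted binding protein for insulin-like growth factors, had 188 and 172 TPM at control day 3, 68 and 76 at day 5, 36 and 38 at day 7, and 23 and 15 in p38i day 7. Its 2 p38i day 7 values were below those of every control library. Mcpt8, a mast cell and basophil protease, had 13 and 10 TPM at control day 5 against 1 and 3. Gucy1b1, a subunit of soluble guanylate cyclase, had 8 and 9 against 6 and 6, and Tnc, the matrix protein tenascin C, had 58 and 66 against 57 and 56 and was not called.

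Interferon response genes formed the most uniform list. Of 42 members tested, 41 were called lower in p38i day 7 than in control day 5 and none higher, against 15.2% lower among all genes, and the median difference was −1.21 against −0.04. The number lower was 33 with only the groups compared in the fit and 30 with a pseudocount of 0.1. In all 42 both p38i day 7 libraries were below both control day 5 libraries, where 30.3% of all genes showed such a gap downwards. Usp18, which removes ISG15 from proteins, was the 1 member not called, with 120 and 122 TPM against 89 and 83. The control mean of 41 of the 42 was at its highest at day 5, so part of the distance was a peak of the controls on the very day chosen. Set against the other days, both p38i day 7 libraries were below both control day 3 libraries for 28 members (24.5% of all genes) and below both control day 7 libraries for 32 (30.3% of all genes). The members are described by role, a division made by hand with the values known and given without a test.

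The 9 IRG and GBP genes were all called lower, with a median difference of −2.56, and in each of the 9 both p38i day 7 libraries were below both libraries of control day 3, of day 5 and of day 7. Tgtp2, an IRG, had 180 and 128 TPM at control day 5 and 4 and 4 in p38i day 7, a mean 38.5-fold lower (difference −4.93 ± 0.30 SE). Control day 3 had 22 and 52 TPM and control day 7 had 58 and 51, so no control library from day 3 on came near the p38i values. Iigp1, another IRG, had 115 and 111 against 4 and 3 TPM (−4.67 ± 0.21), and Igtp had 244 and 231 against 23 and 25 (−3.25 ± 0.23). Gbp2, a guanylate-binding protein, had 299 and 285 TPM against 34 and 39, with 87 and 80 at control day 7 (−2.97 ± 0.20). Tgtp1 and Tgtp2 are 99.8% identical over 2811 bases of transcript, so the split of reads between them is uncertain. Tgtp1, at 862 and 836 TPM against 145 and 154, was also called lower. Gbp4, outside the list but among the 10 genes with the most negative differences, had 27 and 31 TPM against 2 and 1. It resembles Gbp8 and Gbp10 closely enough that its level is likewise uncertain.

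In the earlier pair, 2714 genes (20.5%) were called, 1208 (9.13%) higher and 1506 (11.4%) lower, and 1787 without p38i day 5 replicate 1. All 9 IRG and GBP genes were called lower there too, with a median of −2.25. Tgtp2 had 22 and 52 TPM at control day 3 against 1 and 2 at p38i day 5 (−3.83, adjusted p = 2.7e-08 in limma), and Igtp had 96 and 159 against 22 and 18 (−2.58, adjusted p = 9.8e-08). The lower level was thus found in libraries outside the later contrast, although control day 3 had been one of the days compared in the choice. Iigp1 was the 1 member of the 9 with a called difference between the pairs (−1.35).

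Antigen processing and MHC class I genes were lower against control day 5 but not in the same way in the earlier pair. All 8 tested were called lower in p38i day 7, with a median of −2.12, and all 8 were below both control day 7 libraries, against 30.3% of all genes. Psmb8 and Psmb9, subunits of the immunoproteasome, had 222 and 186 TPM against 19 and 17, and 77 and 64 against 6 and 10. Tap1, which carries peptides into the endoplasmic reticulum, had 179 and 182 TPM against 29 and 31 (−2.55 ± 0.17). These 3 were also lower in the earlier pair, with differences of −1.92 (adjusted p = 0.0026), −2.28 (4.3e-07) and −1.66 (9.9e-07). The class I chains behaved otherwise. H2-K1 had 1591 and 1383 TPM at control day 5 and 483 and 437 in p38i day 7 (−1.69 ± 0.07), but at the earlier pair it was higher in p38i, with 185 and 197 at control day 3 and 277 and 268 at p38i day 5 (0.51, adjusted p = 4.0e-05). The difference between the pairs was −2.20 and was called, and it rests on the control day 5 values, the highest of the control course. H2-D1 and B2m, the other class I chain and the shared light chain, had the same pattern, with earlier differences of 0.28 and 0.29 and later ones of −1.17 and −0.92. H2-D1 resembles H2-Q7 closely, so its own level is uncertain. In the controls H2-K1 rose from 185 and 197 TPM at day 3 to 1591 and 1383 at day 5 and remained at 1476 and 1338 at day 7, a rise that p38i day 7 had made only in part.

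The 4 transcription factors of this response on the list, Stat2, Irf7 and Irf9 among them, were all called lower. Their median difference was −1.05, from −1.61 to −0.31. Stat2 had 163 and 177 TPM at control day 5 against 81 and 71 in p38i day 7 (−1.15 ± 0.09). Irf7, which amplifies type I interferon, had 147 and 153 against 76 and 79, and Irf9, the DNA-binding partner of STAT2, had 103 and 110 against 89 and 82. All 4 had both p38i day 7 libraries below both control day 3 libraries, against 24.5% of all genes. In the earlier pair 2 of the 4 were called lower and none higher, Stat2 (−0.50, adjusted p = 0.00060 in limma) among them.

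The 21 antiviral effectors, sensors and modifiers showed a smaller difference, with 20 called lower and a median of −0.79. Ifit1, which binds viral RNA, had 109 and 113 TPM at control day 5 against 58 and 51, but control day 3 had 55 and 68 and control day 7 had 61 and 70, so p38i day 7 lay close to the days on either side of the control peak. Over the 21, both p38i day 7 libraries were below both control day 7 libraries in 13 and below both control day 3 libraries in 10, against 30.3% and 24.5% of all genes. Isg15, the ubiquitin-like modifier, had 438 and 441 against 230 and 201, with 238 and 289 at control day 3. In the earlier pair 3 of the 21 were called lower and none higher, with a median of −0.31. Ifit3 and Ifit3b share 97.8% of 1700 bases, so their levels, 99 and 101 against 40 and 37 TPM and 38 and 42 against 16 and 12, cannot be separated with certainty.

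The list was also divided by motif. Of 33 members with a promoter in the table, 17 (51.5%) held an ISRE match in the 250 bases before the start, against 3.19% of the 10004 genes, and 9 (27.3%) held a GAS match, against 6.96%. The list was gathered as interferon response genes, which carry such sites, so these shares follow in part from its making and do not bear on p38i day 7. The 9 with a GAS match had a median difference of −2.50, from −4.93 for Tgtp2 to −0.60 for Oas1a. The 10 with an ISRE and no GAS match had a median of −1.25, and the 14 with neither had −0.98. In the earlier pair the 3 medians were −1.92, −0.49 and −0.36. This division was made after the values were seen and is a description without a test, and 4 of the 9 GAS genes are the related IRG genes printed or named above. Except for Ifit2 and Psmb8, the GAS genes also held an ISRE match, so the classes do not set one motif against the other. Among the IRG and GBP genes, Gbp2, Gbp3 and Irgm1, whose promoters are not printed, held an ISRE and no GAS match. Gbp2 and Gbp3 had differences of −2.97 and −1.95. A match is not a bound site, and Psmb9 and Tap1, with differences of −3.02 and −2.55, held neither motif in this window.

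**Figure D2:**
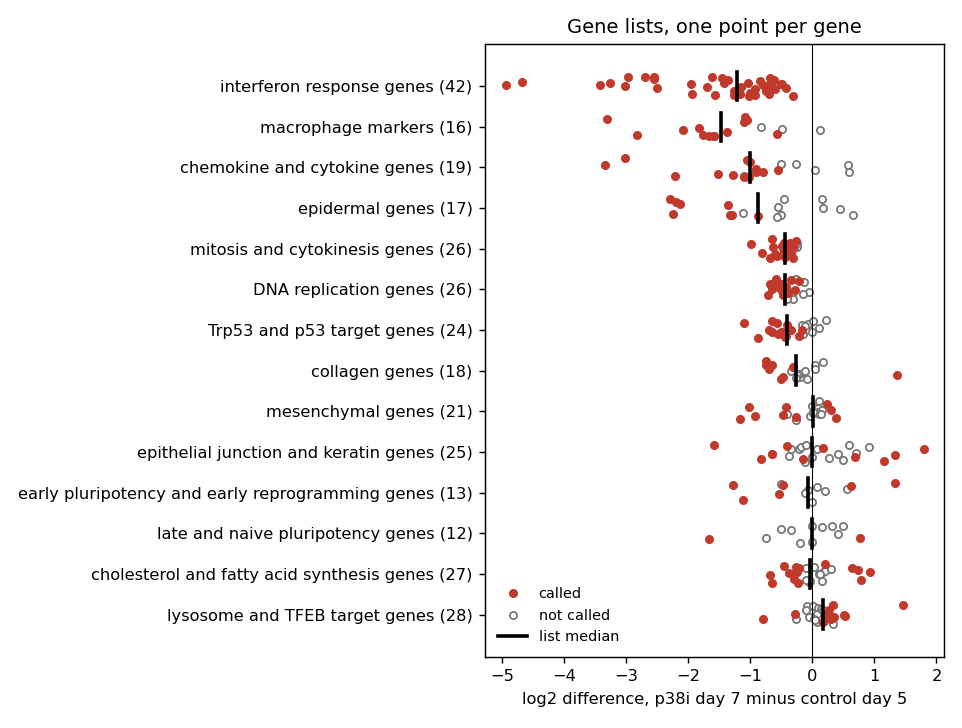
Difference in log2(TPM + 1) between p38i day 7 and control day 5 (horizontal axis) for the genes of 14 lists (vertical axis, number of genes tested in brackets), one point per gene, filled red where called, with a bar at the list median. All interferon points lie below 0, with a median of −1.21, and the mitosis points also lie below 0 but closer to it, with a median of −0.43.

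Chemokines and macrophage markers were lower beside the interferon genes. Of 19 chemokine and cytokine genes 13 were called lower and none higher, against 15.2% and 8.40% of all genes, with a median of −1.01. After quantile normalization 2 were called higher, and with only the groups compared in the fit 4 were called lower. Cxcl10, an interferon-induced chemokine, had 11 and 16 TPM at control day 5 against 0 and 1, and Il18bp, the secreted antagonist of interleukin 18, had 31 and 36 against 4 and 2. Ccl2, which attracts monocytes, had 726 and 677 TPM against 326 and 348, while in the earlier pair it was 234 and 301 against 280 and 290 and did not differ by test (0.10, adjusted p = 0.60). The difference between the pairs was called for Ccl2 (−1.16).

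Of 16 macrophage markers tested, 13 were called lower and none higher, with a median of −1.48, and in the earlier pair 11 were called lower and none higher. The later count was 7 with only the groups compared in the fit. C1qa, a chain of complement C1q, had 24 and 23 TPM against 3 and 2, and in MEF, day 1, day 3 and day 7 controls it was also above both p38i values. Lyz2, the lysozyme of macrophages, had 270 and 261 against 135 and 113. The summed level of the whole list was 677 and 688 TPM at control day 5, 332 and 281 in p38i day 7, 567 and 563 at control day 3, 297 and 292 at p38i day 5, and 374 and 354 in uninduced MEFs. Cd68, a lysosomal glycoprotein of macrophages, was 44 and 51 TPM against 54 and 49 and was not called. Cd163 and Cx3cr1 were listed at 0 in all 4 libraries and Ptprc, the leukocyte antigen CD45, was listed at 1 in each control day 5 library and 0 in each p38i day 7 library. In the later pair the macrophage markers thus shared a direction with the interferon and chemokine genes. The control mean was highest at day 5 for 6 of the 16, against 41 of 42 interferon genes and 10 of 19 chemokine and cytokine genes. In the earlier pair 19 of the 42 interferon genes were called lower and 3 higher, and 5 of the 19 chemokine and cytokine genes lower and 2 higher. The part of the macrophage markers in those differences was not tested.

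Fibroblast markers were also lower. Of 10 tested, 6 were called lower, Postn and Col1a2 among them, and 2 higher, with a median of −0.69, and in the earlier pair 7 were lower and none higher, with a median of −1.19. The later counts were 2 lower and 1 higher with only the groups compared in the fit. The summed level of this list was 4916 and 5475 TPM at control day 5 against 4602 and 4604 in p38i day 7. Their part in the other differences was not tested. The summed level of the endothelial list was 63 and 66 TPM at control day 5 and 71 and 67 in p38i day 7, and none of the 4 tested markers was called. The neural list summed to 315 and 315 TPM against 273 and 272, with 2 of 5 called lower and 2 higher.

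Pluripotency genes did not reach the control day 7 level. Nanog had 0 and 1 TPM at control day 5, 1 and 1 in p38i day 7 and 12 and 16 at control day 7. Esrrb, Sall4 and Dppa5a, which mark the late network, were listed at 0 in all 4 libraries of the comparison and had 7 and 4, 8 and 8, and 22 and 30 TPM at control day 7. Of 12 late and naive pluripotency genes, 1 was called higher and 1 lower in p38i day 7 than in control day 5. The gene called lower was Zscan10 (−1.66). It lost the call with a pseudocount of 0.1 and with only the groups compared in the fit. Of the 12, 10 had both p38i day 7 libraries below both control day 7 libraries, against 30.3% of all genes. For the late genes the cultures at p38i day 7 and control day 5 could thus hardly be told apart, and several of these genes are too low in both for a difference to be seen.

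Early reprogramming genes were split. Trh, a neuropeptide precursor that is switched on in intermediates, had 922 and 873 TPM at control day 5, 1410 and 1366 in p38i day 7 and 1749 and 1792 at control day 7. Epcam, an epithelial adhesion molecule of pluripotent cells, had 39 and 34 against 98 and 89, with 182 and 183 at control day 7 (difference 1.33 ± 0.20). It was also higher in the earlier pair, with 8 and 10 TPM against 30 and 28 (1.59, adjusted p = 9.8e-06). Zfp296, a zinc finger partner of Klf4, was lower instead, with 13 and 14 TPM against 5 and 5. Among 13 early genes 2 were called higher and 4 lower. In all 13 both p38i day 7 libraries were below both control day 7 libraries, against 30.3% of all genes. Both groups were thus behind control day 7, and p38i day 7 was ahead of control day 5 for Epcam and Trh and behind it for Zfp296 and L1td1.

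The factor genes were similar or lower in p38i day 7. Pou5f1 had 2944 and 3117 TPM at control day 5 against 2008 and 2144 (−0.55 ± 0.05), Klf4 had 755 and 801 against 596 and 607 (−0.37 ± 0.08), and Sox2 had 942 and 1018 against 752 and 823 and was not called. Control day 7 had 2214 and 2316, 615 and 605, and 842 and 825 TPM. Transgene and endogenous transcripts cannot be told apart in these values.

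Epithelial genes followed the position between control days 5 and 7 only for some members. Of 25 tested, 5 were called higher and 5 lower in p38i day 7 than at control day 5, with a median of 0. In 23 both p38i day 7 libraries were below both control day 7 libraries, against 30.3% of all genes. Cdh1, E-cadherin, had 67 and 67 TPM against 71 and 70 and was not called, with 159 and 151 at control day 7. Cldn7, a tight junction claudin, had 1 and 1 against 4 and 3, Krt8, a simple epithelial keratin, 19 and 17 against 31 and 28, and Rab25, an epithelial recycling GTPase, 0 and 1 against 5 and 3. Cldn7 and Krt8 lost the call with a pseudocount of 0.1, and they and Rab25 lost it with only the groups compared in the fit. Of the 5 called lower, Dsp, desmoplakin, had 45 and 54 TPM against 27 and 28, and Perp, a desmosomal p53 target, had 374 and 384 against 231 and 252. Without control day 5 replicate 2 the counts were 4 higher and 2 lower, and without either p38i day 7 replicate they were 3 and 3. Without control day 5 replicate 1 they were 4 and 3. With only the groups compared in the fit they were 2 and 3.

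Epidermal genes were lower with a larger gap. Of 17 tested, 8 were called lower and none higher, with a median of −0.88, though 2 others were called higher after quantile normalization, and 5 were lower and 1 higher with only the groups compared in the fit. Tgm1, a transglutaminase of the cornified envelope, had 27 and 25 TPM at control day 5 against 5 and 4 in p38i day 7. Klk10, a kallikrein of stratified epithelia, had 125 and 127 against 29 and 27, with 90 and 79 at control day 7. Trp63, the basal keratinocyte regulator, had 10 and 11 against 3 and 4. In the earlier pair 7 of 17 were called lower and none higher, among them Klk10 at 155 and 135 against 35 and 37 TPM (−1.98, adjusted p = 5.5e-11).

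**Figure D3:**
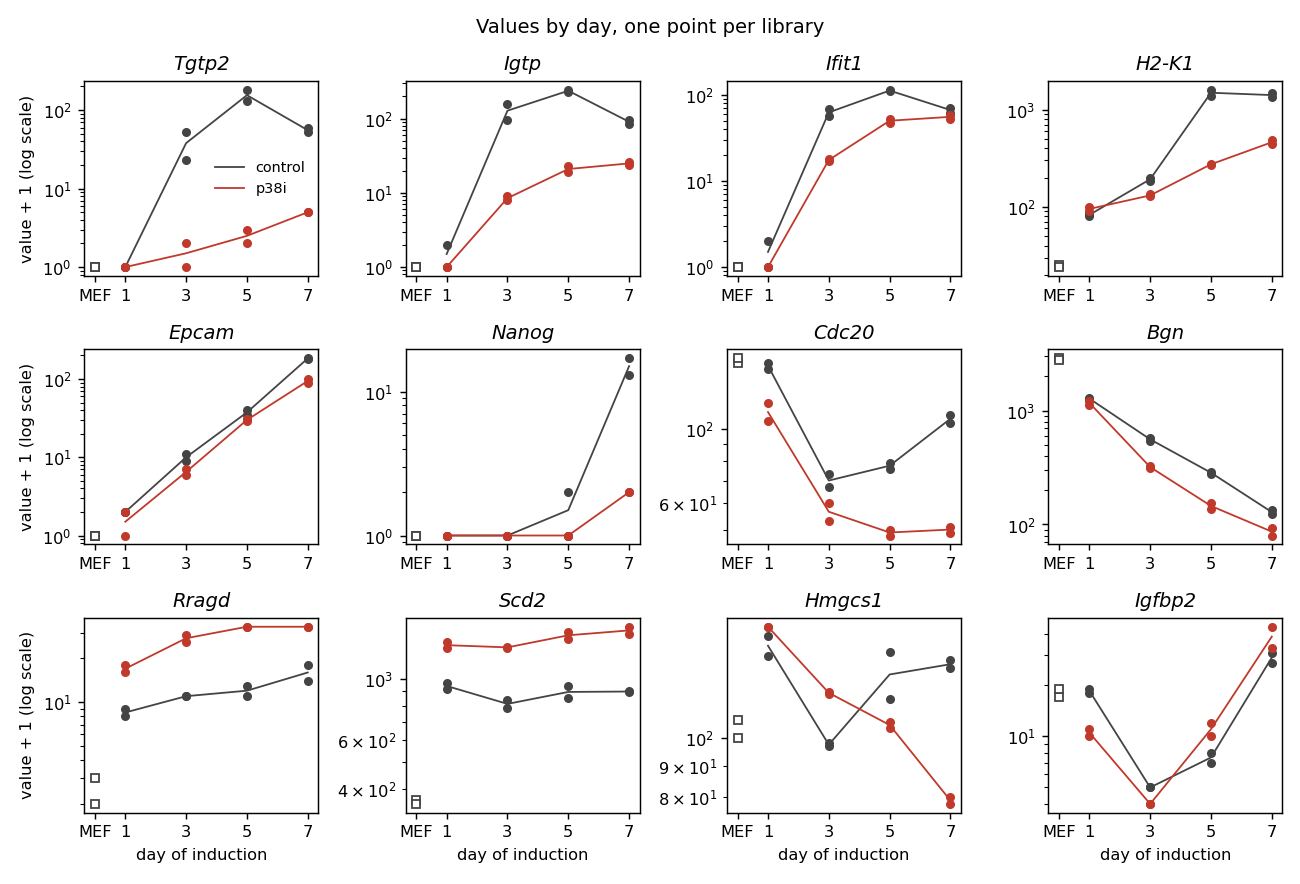
Deposited value plus 1 (vertical axis, log scale, read as TPM) by day of induction (horizontal axis) for 12 genes in control (grey) and p38i (red) cells, one point per library, lines through the group means, open squares for uninduced MEFs. The p38i points of Tgtp2 and Igtp stay below the control points from day 3 on, those of H2-K1 lag the control rise, and those of Rragd and Scd2 lie above it.

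Mesenchymal and matrix genes gave both directions. Of 21 mesenchymal genes 6 were called lower and 3 higher, and of 18 collagen genes 7 were lower and 1 higher. With only the groups compared in the fit, 4 mesenchymal genes and 1 collagen gene were called lower and none of either list higher. Without p38i day 7 replicate 2, 4 mesenchymal genes were called lower and 2 higher. Bgn, the proteoglycan biglycan, had 277 and 291 TPM at control day 5 against 79 and 92 in p38i day 7 and 122 and 133 at control day 7, so it was below every control library. S100a4, a calcium-binding fibroblast marker, had 215 and 209 against 102 and 86, with 173 and 187 at control day 7. Postn, the matricellular protein periostin, had 79 and 80 against 28 and 34, which is the level of control day 7 (28 and 30). Genes higher in p38i day 7 included Fbn1, fibrillin 1, at 142 and 161 against 195 and 199 TPM, Dcn, decorin, at 149 and 150 against 225 and 231, and Cdh2, N-cadherin, at 108 and 118 against 134 and 145.

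The gap of these lists was larger in the earlier pair. There 11 of 18 collagen genes and 10 of 21 mesenchymal genes were called lower, and the difference between the pairs was called in the positive direction for 6 collagen and 3 mesenchymal genes and in the negative direction for none, against 145 positive (1.10%) and 178 negative (1.35%) among all genes. Col1a2, a chain of type I collagen, had 2075 and 1872 TPM at control day 3 against 875 and 876 at p38i day 5 (−1.17, adjusted p = 5.1e-11), and 1076 and 1227 at control day 5 against 673 and 697 at p38i day 7. Fn1, fibronectin, was lower in the earlier pair (−0.27, adjusted p = 0.0010), and its values of 591 and 649 against 677 and 658 TPM in the later pair were not called, with the difference between pairs called (0.38).

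Smooth muscle and contractile genes showed the same narrowing. Of 15 tested, 9 were called lower and none higher in the earlier pair, and 2 lower and 2 higher in the later one, with 5 called in the positive direction for the difference between the pairs. Tagln, the actin-binding protein transgelin, had 38 and 41 against 24 and 19 TPM early (−0.86, adjusted p = 9.2e-05) and 20 and 18 against 23 and 32 late, and Actg2, smooth muscle gamma actin, was lower in both, with 41 and 40 against 21 and 16 late.

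Genes of the cell cycle were lower by a small and regular amount. Of 26 mitosis and cytokinesis genes 23 were called lower in p38i day 7 and none higher, with a median of −0.43. In all 26 both p38i day 7 libraries were below both control day 7 libraries, against 30.3% of all genes. Cdc20, an activator of the anaphase-promoting complex, had 78 and 75 TPM at control day 5 against 50 and 48 in p38i day 7, with 72 and 66 at control day 3 and 109 and 103 at control day 7. Plk1, the polo-like mitotic kinase, had 51 and 52 against 38 and 35, and Anln, anillin of the cleavage furrow, had 55 and 70 against 38 and 39. These 3 and Cenpe, Tpx2 and Aurka were called below every control group, as described below. Cdk1, the mitotic kinase itself, had 134 and 128 TPM against 101 and 117. In the earlier pair 18 were called lower and none higher, with a median of −0.37, so a similar gap was present at both stages. With only the groups compared in the fit, 3 of the 26 were called, so the calls of this list rest on the spread estimated over all groups.

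DNA replication genes were lower as well, with 18 of 26 called lower and none higher and a median of −0.44. The count was 12 without control day 5 replicate 2 and 5 with only the groups compared in the fit. Rrm2, the regulatory subunit of ribonucleotide reductase, had 147 and 141 TPM against 96 and 94, and Ccne1, cyclin E1, had 39 and 38 against 23 and 23. Mcm5, of the replicative helicase, had 70 and 63 against 46 and 41, with 106 and 100 at control day 7. E2f1 had 25 and 27 against 26 and 24 and was not called.

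Trp53 and its targets were lower at the same time as the proliferation genes. Of 24 tested, 16 were called lower and none higher, against 15.2% and 8.40% of all genes, with a median of −0.42, and in the earlier pair 18 were lower and none higher. With only the groups compared in the fit, 7 were called lower. Trp53 itself had 184 and 199 TPM against 141 and 137, Cdkn1a, the p21 inhibitor of cyclin-dependent kinases, had 1027 and 1033 against 767 and 743, and Fas, the death receptor, had 27 and 27 against 12 and 12. Mdm2, the ubiquitin ligase of p53, had 187 and 187 against 140 and 139, close to the 126 and 148 of control day 7. In 20 of the 24 genes both p38i day 7 libraries were below both control day 3 libraries, against 24.5% of all genes.

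Lysosome genes were higher. Of 28 members, 12 were called higher and 2 lower, against 8.40% and 15.2% of all genes, with a median of 0.17. Rragd, a GTPase that recruits the kinase mTORC1 to lysosomes, had 10 and 12 TPM at control day 5 against 32 and 32 (1.46 ± 0.16). Ctsb, cathepsin B, had 779 and 785 against 925 and 935, Neu1, lysosomal sialidase, had 57 and 54 against 76 and 83, and Lamp1, a membrane glycoprotein of lysosomes, had 997 and 1014 against 1156 and 1143. The 2 members called lower were the transcription factors Mitf, at 3 and 2 against 1 and 1 TPM, and Tfe3, at 61 and 73 against 58 and 52. The control level of many lysosome genes falls late, and 25 of the 28 had both p38i day 7 libraries above both control day 7 libraries, against 29.0% of all genes. In the earlier pair 17 were called higher and none lower, with a median of 0.22, Rragd having 10 and 10 TPM against 32 and 32 (1.58, adjusted p = 8.5e-07). With only the groups compared in the fit, 4 were called higher in the later pair.

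TFEB and TFE3 bind lysosome promoters at CACGTG, and this motif is shown in 2 promoters of genes that were higher, in capitals, Lamp1 for the list and Fam189a2, a gene beyond the control course. The windows are the 120 bases before the start, chr8:13159041-13159160 (plus strand) for Lamp1 and chr19:24031020-24031139 (minus strand) for Fam189a2, in GRCm38.p6.
Lamp1: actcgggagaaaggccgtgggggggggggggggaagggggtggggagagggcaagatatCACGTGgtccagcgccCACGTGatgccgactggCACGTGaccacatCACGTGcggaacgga
Fam189a2: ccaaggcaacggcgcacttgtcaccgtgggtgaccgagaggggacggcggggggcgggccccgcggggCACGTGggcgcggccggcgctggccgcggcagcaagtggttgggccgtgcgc
Lamp1 held 4 matches and Fam189a2 held 1. In the 250 bases before the start, 10 of 23 genes of the lysosome and TFEB target list with a promoter in the table (43.5%) held CACGTG. So did 13 of 79 genes called higher beyond the control course (16.5%), against 9.79% of the 10004 genes. The list includes TFEB targets by its making, so its share follows in part from how it was chosen. Of its 28 tested members, 4 were themselves called higher beyond the course, so the 2 sets overlap. Other factors bind the same letters, so a match does not name one.

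Lipid synthesis genes, divided into branches by hand with the values known, moved in opposite directions by branch. This division is a description without a test. Of 15 genes of the mevalonate and sterol branch, 10 were called lower in p38i day 7 and 1 higher, with a median of −0.25. The number lower was 6 without control day 5 replicate 2 and 3 with only the groups compared in the fit. Hmgcs1, the synthase before the rate-limiting step, had 115 and 137 TPM against 77 and 79 (−0.68 ± 0.09), Idi1, isopentenyl diphosphate isomerase, had 95 and 99 against 59 and 64, and Sqle, squalene epoxidase, had 117 and 127 against 107 and 104. The exception was Dhcr7, the last reductase of cholesterol synthesis, at 59 and 68 against 119 and 123 (0.92 ± 0.07). Of 7 genes of fatty acid synthesis and its regulator Srebf1, 4 were called higher and none lower, and 1 was higher with only the groups compared in the fit. Scd2, a stearoyl-CoA desaturase, had 852 and 937 TPM against 1444 and 1536 (0.74 ± 0.06), and Srebf1, the transcription factor of fatty acid synthesis genes, had 137 and 155 against 235 and 267 (0.78 ± 0.07). Scd1 and Scd2 share 95.5% of 623 bases, so their levels may be partly exchanged. Over the 27 genes of both branches with the uptake and sensing genes, 5 were called higher and 10 lower, and 7 and 7 after quantile normalization.

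The sterol branch was not low in the earlier pair. There 7 of the 15 were called higher and none lower, with a median of 0.21, and 11 of the 15 were called for a difference between the pairs, all in the negative direction. Hmgcs1 had 96 and 97 TPM at control day 3 against 105 and 103 at p38i day 5 (0.11, adjusted p = 0.45), and the difference between the pairs was −0.79 and was called. Insig1, which holds sterol sensing at the endoplasmic reticulum, was 120 and 123 against 227 and 237 TPM early (0.93, adjusted p = 9.0e-08) and 167 and 194 against 209 and 207 late, which was not called. Fatty acid genes were higher in both, with 6 of 7 called early, Scd2 at 836 and 784 against 1474 and 1388 (0.82, adjusted p = 3.2e-09).

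**Figure D4:**
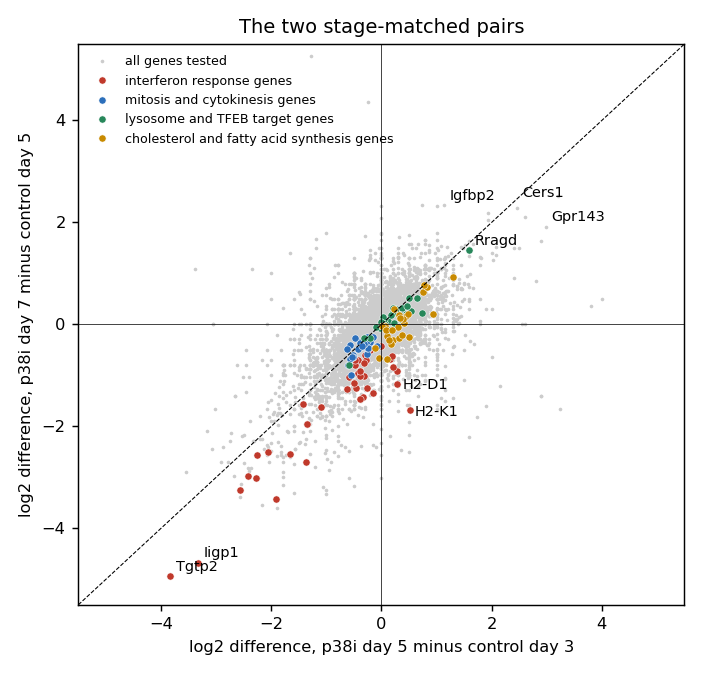
Log2 difference of p38i day 7 minus control day 5 (vertical axis) against p38i day 5 minus control day 3 (horizontal axis) for 13230 genes (grey) and 4 lists (colours), with the line of equality dashed. Tgtp2 lies far below 0 on both axes, and H2-K1 lies to the right of 0 (0.51) and below it (−1.69). Sterol and fatty acid genes are drawn as one list of 27 genes. Of these, 12 had a called negative difference between the pairs, which places them below the dashed line, and none had a called positive one.

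Of the 1111 genes called higher in the later pair, 518 (46.6%) were called higher in the earlier pair, where they made up 42.9% of 1208. Of the 2006 called lower, 954 (47.6%) were called lower in the earlier pair, where they made up 63.3% of 1506. Calls in opposite directions were 13 and 17. The difference between the pairs was called for 323 genes (2.44%), and for 152 without control day 5 replicate 2, 163 and 186 without p38i day 7 replicates 2 and 1, 197 without p38i day 5 replicate 1, and 6 when only the groups compared were fitted. Calls of the later pair were thus in part also made 2 days earlier in separate libraries, while the class I chains, the sterol branch and 6 collagen genes had a called difference between the pairs.

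Some genes were higher or lower in p38i day 7 than in every control group of the course. A gene was called beyond the course when p38i day 7 differed in the same direction from MEF, day 1, day 3, day 5 and day 7 controls, taking the least significant of the 5 tests, which share the p38i day 7 libraries. The tests against MEF and control day 1, used here only for that purpose, called 69.1% and 53.3% of all genes. There were 95 such genes higher (0.718%) and 67 lower (0.506%). The counts were 51, 46 and 56 higher without p38i day 7 replicate 1, p38i day 7 replicate 2 and control day 5 replicate 1, and 43 and 38 lower without p38i day 7 replicates 1 and 2. In values alone, both p38i day 7 libraries were above all 10 control libraries for 832 genes (6.29%) and below all 10 for 440 (3.33%).

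Among the higher genes, Map2k6, the kinase MKK6 that activates p38, had 9 and 10 TPM at control day 5 against 26 and 27, with no control group mean from MEF to day 7 above 10. It was also higher in the earlier pair, with 8 and 10 TPM against 21 and 25 (1.27, adjusted p = 1.0e-06). Cers1, a ceramide synthase, had 1 and 2 TPM against 11 and 11, but its transcripts overlap those of Gdf1 completely over 1349 bases, so its level is uncertain. Gpr143, a pigment cell receptor, had 5 and 6 against 23 and 24, Myoc, myocilin, had 4 and 4 against 14 and 15, and Fam189a2 had 3 and 3 against 12 and 10. All 5 were called higher in the earlier pair.

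Among the lower genes, Mlkl, the effector of necroptosis, had 22 and 22 TPM against 3 and 5. Plaur, the urokinase receptor, had 103 and 99 against 44 and 34, and Ptgs2, the inducible cyclooxygenase COX-2, had 42 and 45 against 15 and 14. For both genes the p38i day 7 values lay below every control library, untreated MEFs having 281 and 274 TPM on average. Igf2bp1, an RNA-binding protein of embryonic cells, had 7 and 12 against 2 and 2. C1qa was the remaining gene. Among these 5, Mlkl alone had a called difference between the pairs (−1.23), having 16 and 16 TPM against 7 and 8 in the earlier pair.

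**Figure D5:**
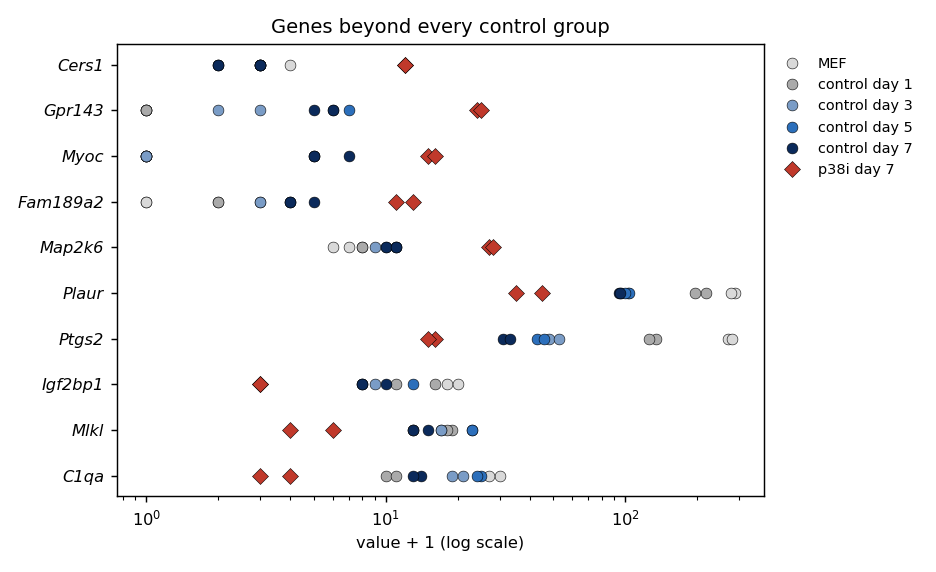
Deposited value plus 1 (horizontal axis, log scale, read as TPM) of the 10 genes named beyond the control course (vertical axis) in uninduced MEFs and control days 1, 3, 5 and 7 (circles) and in p38i day 7 (red diamonds), one symbol per library. The 2 diamonds lie above all circles for Map2k6 (26 and 27) and below all circles for Mlkl (3 and 5).

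Of 21 p38 kinases, activators and effectors, 3 (14.3%) were called higher and 3 lower, against 8.40% and 15.2% of all genes. Mapk14, the gene of p38α, had 41 and 39 TPM at control day 5 against 45 and 41 and was not called. Besides Map2k6, the kinase genes Mknk2 (118 and 126 against 171 and 165) and Mapkapk2, which encodes MK2 (86 and 92 against 106 and 108), were higher. Zfp36, tristetraprolin, which degrades inflammatory mRNA and is an MK2 substrate, had 15 and 15 against 9 and 8.

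Immediate early genes and MAP kinase feedback genes were split. Of 17 AP-1 and immediate early genes 3 were called higher and 4 lower. Jund had 175 and 192 TPM against 318 and 292, whereas Fosl1, the FRA-1 subunit of AP-1, had 37 and 43 against 18 and 17 and Myc had 35 and 39 against 19 and 18. Jun had 80 and 87 against 86 and 93 and was not called. Of 16 feedback genes 5 were called higher and 3 lower, among them the phosphatase genes Dusp6, for ERK, at 76 and 76 against 98 and 101, and Dusp8 at 4 and 4 against 9 and 10.

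Igfbp2 had the largest difference upwards of the genes that were called, averaged 5 TPM or more over the 4 libraries, had no overlap between the groups and had no predicted-gene or non-coding symbol. Igfbp2, a binding protein for insulin-like growth factors, had 6 and 7 TPM at control day 5 against 43 and 32, a mean 5.77-fold higher (2.35 ± 0.16), and 26 and 30 at control day 7. Ptn, the growth factor pleiotrophin, had 33 and 32 against 136 and 139, with 106 and 114 at control day 7. Aif1l, an actin-binding protein, had 41 and 49 against 136 and 148, and Olfml1 had 2 and 2 against 10 and 14. For Igfbp2 and Ptn both p38i day 7 libraries were thus above both control day 7 libraries, by less than for Aif1l (78 and 80 at control day 7). Mrpl23, a mitochondrial ribosomal protein gene, had 2 and 3 against 7 and 15, with the 2 p38i values far apart.

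Gpc3 and Dlk1, which act on growth of the embryo, differed between the stages. Gpc3, glypican 3, had 3 and 2 TPM against 11 and 10 in the later pair and 5 and 3 against 3 and 3 in the earlier one, and the difference between the pairs was called (2.02). Dlk1, a paternally expressed ligand of the Notch family, had 3 and 4 against 9 and 9 late and 7 and 7 against 3 and 4 early, where it was lower (−0.84, adjusted p = 0.0021). Of the 20 genes of the imprinted list, which also holds the X-linked Gpc3, 6 were called higher and 2 lower in the later pair.

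Under the same limits, the 10 genes with the most negative differences were Tgtp2, Iigp1, Gbp4, Psmb8, Cxcl10, Igtp, Eif4e1b, Il18bp, Psmb9 and Mmp3, of which Mmp3 and Eif4e1b remain to be described. Mmp3, the metalloproteinase stromelysin 1, had 73 and 63 TPM against 7 and 8, with 27 and 39 at control day 7, and it was also lower in the earlier pair at 43 and 48 against 7 and 11 (−2.24, adjusted p = 1.6e-06). Eif4e1b, an oocyte form of the cap-binding protein, had 20 and 23 against 1 and 2, with 20 and 18 at control day 7. Wars, the tryptophanyl-tRNA synthetase, which is an interferon gamma target as well as a member of the ATF4 stress list, had 667 and 661 against 199 and 218. The rest of that list was divided, with 7 of 26 called higher and 8 lower.

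Energy metabolism differed little. Of 22 respiratory chain genes 4 were called higher and none lower, and of 23 glycolysis and hypoxia genes 2 were higher and 7 lower, with called differences of at most 0.67 in size. TGF-beta and BMP genes were lower for 9 of 25 and higher for 3, the largest being Bmp2 at 23 and 26 TPM against 6 and 8. The mitochondrial share of the values was 4.83% and 4.54% in control day 5 and 5.75% and 4.88% in p38i day 7, and the 10 most abundant genes held 8.18% and 7.93% against 8.80% and 8.69%. These library measures moved little between the groups, and their part in the small differences was not tested.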

How the data were processed

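RNA-seq libraries were prepared from total RNA. The submitters' processing notes name bcl2fastq, Bowtie2 2.2.5, RSEM 1.3.0 and the builds hg38 and mm10, and no statistical test is stated. The table deposited by the authors holds 50600 genes with whole-number values per library, read as TPM rounded down and treated as a score with unknown depth. All 28 libraries were fitted in one limma 3.58.1 model (R 4.3.3) with a mean per group, lmFit and eBayes with trend on log2(value + 1), keeping 13230 genes with a mean of at least 1. The scripts were tested on simulated data. Comparisons, members and the 31 gene lists (613 symbols, 542 tested) were chosen with earlier results of these data known. Groups came from the labels.

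Genes named were the 10 with the largest called differences each way, 5 each way beyond the control course, the first 4 members of a list and its members called with a difference of at least 1, the 3 factors, and 4 rising and 4 falling course genes. Other list members were picked after their values were seen. Not every gene under this rule is printed. Of the 210 genes it names, 29 have a gene at least 95% identical over 200 or more bases (BLAST+ 2.17.0), 10 of them with that gene listed at 1 or more. Promoters are from RefSeq for GRCm38.p6 and 99.6% of gene IDs matched the name table. The results were recomputed after quantile normalization, with 0.1 as pseudocount, with the filter removed or raised to a mean of 5, with replicate blocks, without each replicate, with the compared groups alone, and with a minimum difference of 1.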

Additional observations from a re-analysis of the deposited data

Results flagged for a closer look

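The difference between p38i and its matched control differed between the later and the earlier pair for 323 of 13230 genes by the limma contrast of the 2 pairs (Benjamini-Hochberg adjusted p under 0.05), of which 145 were positive and 178 negative. This contrast contains the difference between p38i day 7 and control day 5, whose size chose the control day, so these calls are a description and not independent support. The genes below are those named above for which this held, with the later minus the earlier difference on the log2 scale.

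Among interferon response and related genes the change was negative. It was −2.20 for H2-K1, −1.45 for H2-D1, −1.21 for B2m, −1.35 for Iigp1, −0.66 for Stat2, −1.71 for Gbp4, −0.52 for Wars and −1.16 for Ccl2. Of these, H2-K1, H2-D1 and B2m were higher in p38i in the earlier pair and lower in the later pair.

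Among lipid genes the change was −0.79 for Hmgcs1, −0.61 for Idi1, −0.58 for Sqle, −0.38 for Dhcr7 and −0.72 for Insig1. It was −2.13 for Eif4e1b, −1.23 for Mlkl and −0.87 for Gpx2. Gpx2 and Dhcr7 were called higher in p38i in both pairs, by less in the later one.

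Matrix and contractile genes changed in the positive direction, by 0.38 for Fn1, 0.42 for Col1a2, 0.50 for Dcn, 0.59 for Postn, 0.63 for Tnc, 0.67 for Actg2 and 1.35 for Tagln. The remaining positive changes were 1.22 for Igfbp2, 1.79 for Rab25, 2.00 for Dlk1 and 2.02 for Gpc3. Rab25, Dlk1 and Gpc3 had values of at most 11 TPM in the 4 libraries of each pair.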

How the results depend on the processing

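No gene under the naming rule changed direction. Of these 210 genes 152 were called, 92 of these lost the call in at least 1 of 11 settings and 10 others gained one. With only the groups compared in the fit, calls fell to 877 for p38i day 7 against control day 5, 674 for the earlier pair and 6 for the difference between the pairs. Beyond the control course they fell to 42 higher and 32 lower. List counts fell to 33 interferon genes, 3 mitosis genes, 7 macrophage markers and 4 lysosome genes, and those of the other lists rerun this way stand beside their results. With a difference of at least 1, the counts were 620, 510, 93, 9 and 10 in the same order, and among course genes 76 rising lower, 55 rising higher, 60 falling lower and 8 falling higher. A minimum mean of 5 gave 86 rising lower and 54 rising higher, a pseudocount of 0.1 gave 62 rising higher, and quantile normalization gave 66 falling higher. Leaving out each replicate gave 1999 to 2468 calls for the later pair, 1787 to 1999 for the earlier, 152 to 274 for their difference, 46 to 77 higher and 38 to 53 lower beyond the course, 94 to 105 rising lower, 70 to 74 rising higher, 78 to 116 falling lower and 16 to 30 falling higher. The lone replicate was then assumed to vary like the other groups. For the list counts, leaving out each replicate gave 36 to 39 interferon, 17 to 21 mitosis, 12 to 13 macrophage and 10 to 11 lysosome genes. The nearest control day was 7 with the 500 most variable genes. Beyond fewer samples or genes in a fit, the cause of these shifts was not tested. Leaving out p38i day 5 and control day 3 replicates for the difference between the pairs was added after seeing the data.

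Replicate numbers did not pair the samples, since deviations of same-numbered libraries correlated at −0.0838 to 0.0874. The replicate block over all groups gave 1098 higher and 1978 lower calls for the later pair and the block within time point 1004 and 1854, and the latter gave 180 for the difference between the pairs. The depth behind the values is unknown.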
